A study of Mus musculus with 12 samples.

Results

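The snoRNA host genes followed here are 5 noncoding genes, measured in mouse liver with AEG-1 and c-Myc transgenes: Gas5, Snhg1, 1500012F01Rik (current symbol Zfas1), Snhg3 and Snhg12. They were picked by symbol from the count tables, and all 5 were among the 22609 genes listed and among the 13684 genes that had enough reads to be fitted. The 5 were picked with their levels over the 4 genotypes known, so their values are given as a description and no test is read from them. Livers came from untreated adult mice, 3 per genotype. Mice heterozygous for an albumin-promoter AEG-1 transgene (Alb/AEG-1) were bred to mice heterozygous for an albumin-promoter c-Myc transgene (Alb/c-Myc). The offspring groups were AEG1_MYC (both transgenes), MYC (Alb/c-Myc alone), AEG1 (Alb/AEG-1 alone) and WT (neither). The albumin promoter is active in hepatocytes, so the transgenes act first in that cell type, while the RNA came from whole liver tissue. In such bulk RNA, fewer cells of a type and less RNA per cell cannot be told apart. The labels give no sex, exact age, litter or batch.

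A snoRNA host gene is transcribed by RNA polymerase II, and small nucleolar RNAs (snoRNAs) are cut from its introns. The snoRNAs guide the chemical modification or the cleavage of ribosomal RNA in the nucleolus. In the genes described here the spliced exons encode no known conserved protein. For some such hosts the spliced RNA is bound by ribosomes and removed by nonsense-mediated decay, and its level reflects both synthesis and decay. Many snoRNA hosts, like the ribosomal protein genes, begin transcription at a C within a run of C and T (a 5′ terminal oligopyrimidine tract), which ties the spliced RNA to growth-dependent control of translation. Gas5 was named for its accumulation in growth-arrested mouse fibroblasts. Snhg1 was the first noncoding snoRNA host described in mammals.

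The start regions are printed because the run of C and T is the feature these hosts are known for. They come from the RefSeq promoter table (build GRCm38.p6, matched by symbol, 5 of 5 found), 50 bases before to 50 bases after each annotated start, 5′ to 3′ on the strand of the gene. Capitals mark the longest run of C and T between 10 bases before and 20 bases after the start, the first of them where several are equally long, as in Zfas1 and at the upstream start of Gas5.
Gas5, upstream start (chr1:161034551-161034650, plus strand): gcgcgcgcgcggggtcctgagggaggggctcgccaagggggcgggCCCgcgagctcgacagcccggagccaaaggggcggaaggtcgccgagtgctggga
Gas5, downstream start (chr1:161035116-161035215, plus strand): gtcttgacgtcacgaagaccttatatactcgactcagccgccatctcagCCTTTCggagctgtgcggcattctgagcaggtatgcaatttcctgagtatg
Snhg1 (chr19:8723437-8723536, plus strand): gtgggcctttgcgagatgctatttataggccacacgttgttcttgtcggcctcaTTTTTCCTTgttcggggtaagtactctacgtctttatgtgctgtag
Zfas1 (chr2:167062884-167062983, plus strand): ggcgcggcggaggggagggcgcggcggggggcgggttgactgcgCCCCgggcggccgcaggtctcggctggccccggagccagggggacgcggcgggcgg
Snhg3 (chr4:132353637-132353736, minus strand): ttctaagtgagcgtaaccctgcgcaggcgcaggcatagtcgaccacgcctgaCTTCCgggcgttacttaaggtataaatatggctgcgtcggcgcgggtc
Snhg12 (chr4:132308628-132308727, plus strand): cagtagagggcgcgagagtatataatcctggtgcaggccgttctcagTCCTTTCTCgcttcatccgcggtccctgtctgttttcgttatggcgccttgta
The runs in Snhg1 and Snhg12 were 9 bases long, a length reached in 7.11% of the 32851 mouse promoters of the table. The downstream of the 2 annotated Gas5 starts held a run of 6 bases, found in 28.7% of promoters, and the upstream one a run of 3 bases, found in 88.3%. Snhg3 had a run of 5 bases (46.4% of promoters) and Zfas1 one of 4 bases (68.6%). The annotated start lay inside the run in Snhg12 and at the downstream start of Gas5. In Snhg1 and Snhg3 the run began after it, at bases 5 and 3 counted from the start. The runs of Zfas1 and of the upstream start of Gas5 ended before it. The letters TATA, searched on the strand of the gene between 40 and 20 bases before the start, stood in Snhg1, Snhg12 and the downstream start of Gas5, and in 5.49% of all promoters. CACGTG, the E-box that Myc binds together with Max and which reads the same on both strands, was not present in the 300 bases of the table for any of the 6 starts and was present in 7.15% of promoters. These are matches of letters only, and the annotated start may differ from the start used in liver.

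The introns hold the snoRNAs. GENCODE (GRCm38) places 9 genes of snoRNA type within Gas5, 8 within Snhg1, 4 within Snhg12, 3 within Zfas1 and 2 within Snhg3. Among those with their own line in the counts, 4 are printed, 1 each from Gas5 and Zfas1 and 2 from Snhg12. In the C/D type, which guides methylation, capitals mark box C (TGATGA) and box D (CTGA). In Snora61, of the H/ACA type that guides pseudouridine formation, they mark the ACA near the 3′ end.
Snord47 (chr1:161038082-161038158, plus strand): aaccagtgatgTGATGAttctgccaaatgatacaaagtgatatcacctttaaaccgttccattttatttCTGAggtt
Snord12 (chr2:167065276-167065365, plus strand): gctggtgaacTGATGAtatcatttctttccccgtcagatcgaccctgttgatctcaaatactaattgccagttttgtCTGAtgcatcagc
Snora61 (chr4:132310240-132310369, plus strand): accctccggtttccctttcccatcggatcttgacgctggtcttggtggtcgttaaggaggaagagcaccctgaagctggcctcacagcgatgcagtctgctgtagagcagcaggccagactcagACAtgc
Snord99 (chr4:132310691-132310764, plus strand): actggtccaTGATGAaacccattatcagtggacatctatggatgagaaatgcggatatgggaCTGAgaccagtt

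Each library held 21931197 to 40552316 reads assigned to genes. Levels are given in CPM, read counts set to a common library total after TMM scaling. Genes differ in length, so a CPM is compared between libraries and never between genes. AEG1_MYC replicates 1 and 2 stood apart from the other 10 libraries, with first principal component scores of 26.0 and 75.8, against -20.1 to 7.44 elsewhere. Several results are therefore also given without them. Such fits rest on 1 AEG1_MYC library, replicate 3. Albumin and 7 other hepatocyte markers were detected throughout. Their summed level was 43270 to 78380 CPM in AEG1_MYC, 73060 to 90540 in MYC and 85280 to 95940 in AEG1, against 110300 to 119200 in WT livers. Albumin, at 2.87% to 9.02% of the reads in genes, made up a large part of these sums. In AEG1_MYC against WT the log2 fold changes of the 8 ran from -1.13 (Alb) to 0.10 (Tat), with a median of -0.33. Between Alb/c-Myc carriers and non-carriers edgeR called 0 of the 8 (0.11% of all genes), with 2 lower at an unadjusted p under 0.05 (11.1%). DESeq2 called 1 lower, against 2.23% of all genes.

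Myc itself marked the genotypes. Its level was 73.0, 165.0 and 58.4 CPM in AEG1_MYC and 23.4, 30.5 and 53.7 CPM in MYC livers, against 3.93, 3.54 and 4.59 in the AEG1 and 4.73, 2.79 and 2.26 in the WT livers. All 6 libraries of Alb/c-Myc carriers lay above all 6 of non-carriers. Mtdh, the mouse gene of AEG-1, did not separate the genotypes (log2 fold change -0.04 ± 0.10 for AEG1 against WT), and the labels do not give the species of the AEG-1 transgene, which leaves the AEG1 label unchecked by this gene.

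**Figure D1:**
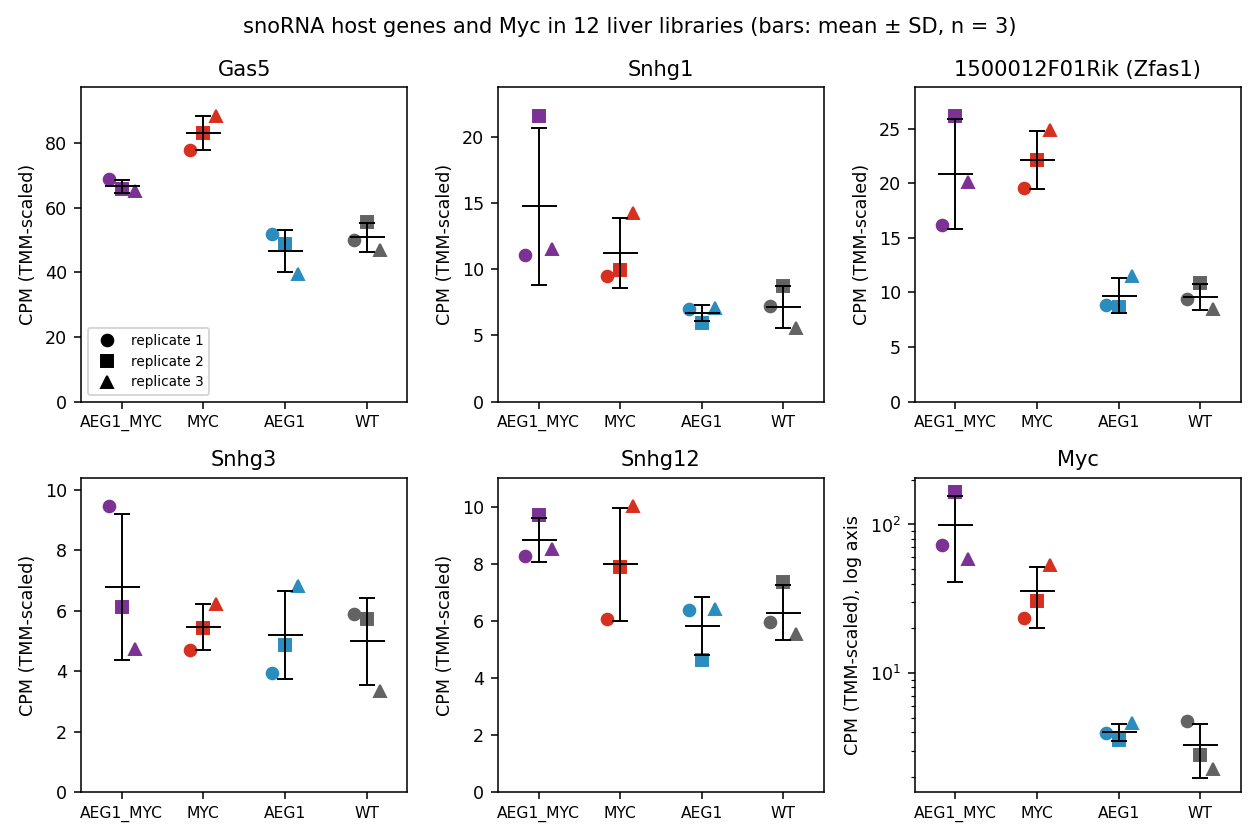
Level of each of the 5 host genes and of Myc in the 12 liver libraries, in TMM-scaled CPM (y axis; logarithmic for Myc), by genotype (x axis), with replicates 1, 2 and 3 as circles, squares and triangles and the bars at mean ± SD (n = 3). Gas5, Snhg1 and Zfas1 lie higher in all 6 AEG1_MYC and MYC libraries than in all 6 AEG1 and WT libraries, while Snhg3 overlaps between all genotypes.

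Zfas1 (1500012F01Rik in the tables) showed the widest separation. Its RNA starts next to and opposite Znfx1, and its introns carry Snord12 and 2 related C/D snoRNAs. The level was 16.2, 26.2 and 20.1 CPM in AEG1_MYC livers, 19.5, 22.1 and 24.8 in MYC livers, 8.84, 8.69 and 11.5 in AEG1 livers, and 9.36, 10.8 and 8.497 in WT livers. The lowest Alb/c-Myc carrier thus lay well above the highest non-carrier, and the genotypes overlapped within the carriers and within the non-carriers. Means were 20.8 ± 5.04 CPM in AEG1_MYC, 22.2 ± 2.65 in MYC, 9.69 ± 1.61 in AEG1 and 9.56 ± 1.18 in WT livers (SD, n = 3 each). On the log2 scale the difference was 1.12 ± 0.19 (SE) for AEG1_MYC and 1.21 ± 0.19 for MYC, each against WT, and 0.02 ± 0.19 for AEG1 against WT. Between all Alb/c-Myc carriers and all non-carriers it was 1.16 ± 0.13, a 2.23-fold difference that ranked 270 among the 13684 genes fitted. The value against WT was 1.078 with AEG1_MYC replicates 1 and 2 left out, from 1 AEG1_MYC library.

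Gas5 was the member with the smallest spread within genotypes and the one in which AEG1_MYC and MYC livers separated. Besides carrying a series of C/D snoRNAs, its spliced RNA is known, from human cells, to bind the glucocorticoid receptor. Gas5 stood at 68.9, 65.8 and 65.1 CPM in AEG1_MYC, 77.8, 83.0 and 88.4 in MYC, 51.8, 48.7 and 39.4 in AEG1, and 49.98, 55.5 and 46.8 in WT livers. All 3 AEG1_MYC libraries fell between the MYC libraries above them and the AEG1 and WT libraries below, with no overlap. Means were 66.6 ± 2.02 CPM in AEG1_MYC, 83.0 ± 5.31 in MYC, 46.6 ± 6.45 in AEG1 and 50.8 ± 4.42 in WT livers (SD, n = 3 each). In that order of levels only AEG1 and WT, the lowest pair, overlapped. The log2 fold change against WT was 0.39 ± 0.11 in AEG1_MYC, 0.71 ± 0.11 in MYC and -0.12 ± 0.11 in AEG1 livers. AEG1_MYC against MYC gave -0.32 ± 0.11, and -0.35 without AEG1_MYC replicates 1 and 2. All libraries of AEG1_MYC lay below all of MYC in 8.85% of the genes fitted. The interaction, which asks whether the AEG-1 transgene went with another change in Alb/c-Myc carriers than in non-carriers, was -0.20 ± 0.16 on the log2 scale.

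Snhg1, the host of Snord22 and of a set of C/D snoRNAs in its other introns, was also higher in Alb/c-Myc carriers, with a wide spread in AEG1_MYC. It measured 11.1, 21.6 and 11.6 CPM in AEG1_MYC, 9.46, 9.95 and 14.3 in MYC, 6.997, 5.97 and 7.08 in AEG1, and 7.20, 8.73 and 5.55 in WT livers. AEG1_MYC replicate 2, the library with the most Myc, lay well above the other 2 livers of its genotype. Means were 14.7 ± 5.92 CPM in AEG1_MYC, 11.2 ± 2.64 in MYC, 6.68 ± 0.619 in AEG1 and 7.16 ± 1.59 in WT livers (SD, n = 3 each). The log2 fold change against WT was 1.04 ± 0.28 in AEG1_MYC and 0.65 ± 0.28 in MYC livers, and -0.10 ± 0.28 in AEG1 livers. Without AEG1_MYC replicate 2 the AEG1_MYC value was 0.66, and the difference of AEG1_MYC from MYC was 0.01, against 0.39 ± 0.27 with it. The difference between AEG1_MYC and MYC therefore rested on that 1 library.

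Snhg12 had overlapping groups at its edges. Its introns carry Snora16a, Snora44 and Snora61, which guide pseudouridine formation, and Snord99. Values were 8.29, 9.75 and 8.54 CPM in AEG1_MYC, 6.08, 7.91 and 10.04 in MYC, 6.41, 4.66 and 6.45 in AEG1, and 5.98, 7.39 and 5.55 in WT livers. AEG1_MYC lay above WT and AEG1 in all its libraries, whereas MYC replicate 1 lay among the non-carriers. The means were 8.86 ± 0.779 CPM in AEG1_MYC, 8.01 ± 1.98 in MYC, 5.84 ± 1.02 in AEG1 and 6.31 ± 0.961 in WT livers (SD, n = 3 each). Against WT the log2 fold change was 0.49 ± 0.21 in AEG1_MYC, 0.35 ± 0.21 in MYC and -0.11 ± 0.21 in AEG1 livers.

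Snhg3, the host of the paired H/ACA RNAs Snora73a and Snora73b, which act in the processing of ribosomal RNA, showed no separation by genotype. It was at 9.45, 6.13 and 4.75 CPM in AEG1_MYC, 4.70, 5.43 and 6.22 in MYC, 3.93, 4.85 and 6.80 in AEG1, and 5.89, 5.74 and 3.33 in WT livers. Every pair of genotypes overlapped, and the highest value, in AEG1_MYC replicate 1, was 2.84 times the lowest, in WT replicate 3. Means were 6.78 ± 2.41 CPM in AEG1_MYC, 5.45 ± 0.761 in MYC, 5.19 ± 1.47 in AEG1 and 4.99 ± 1.44 in WT livers (SD, n = 3 each). These rest on 78 to 286 reads per library. The log2 fold change against WT was 0.44 ± 0.31 in AEG1_MYC and 0.13 ± 0.31 in MYC livers. For AEG1_MYC against WT it turned to -0.07 without AEG1_MYC replicates 1 and 2.

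**Figure D2:**
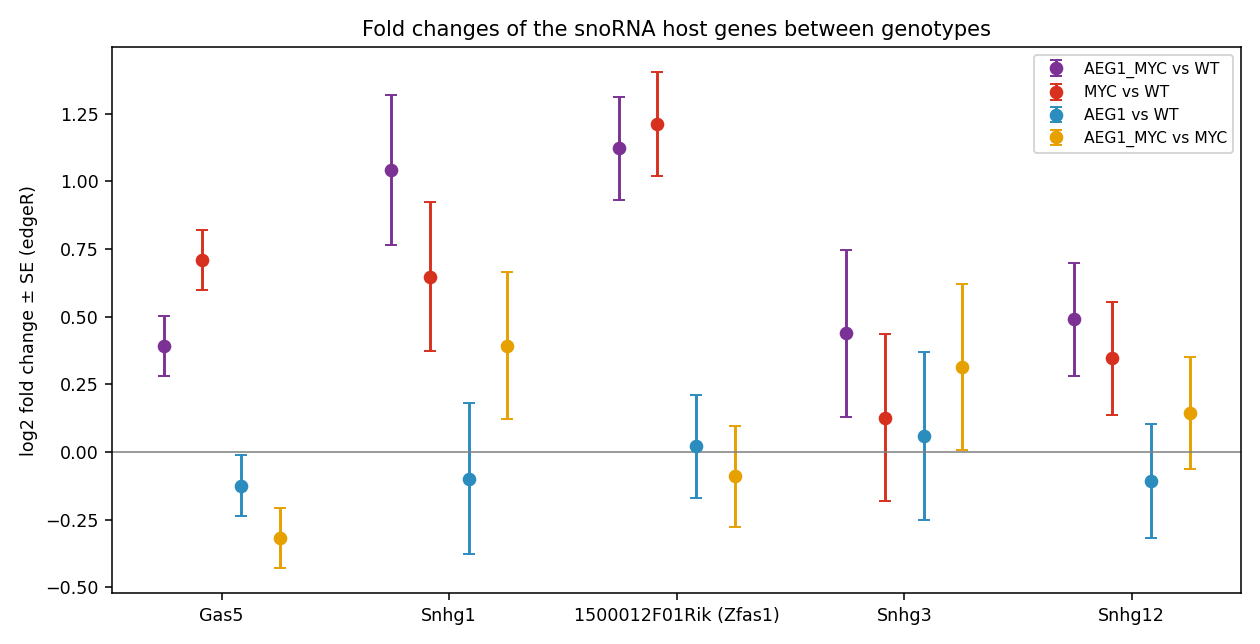
Log2 fold change with its SE (y axis) of each host gene (x axis) for AEG1_MYC, MYC and AEG1 against WT and for AEG1_MYC against MYC, from the fit of all 12 libraries. Zfas1 is at 1.12 and 1.21 for AEG1_MYC and MYC against WT, the AEG1 values lie between -0.12 and 0.06, and Gas5 is at -0.32 for AEG1_MYC against MYC.

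Across the genotypes, then, 3 of the 5 host genes (Zfas1, Gas5 and Snhg1) had all 6 carriers of Alb/c-Myc above all 6 non-carriers, which held for 0.687% of all genes fitted. The same number was found under RLE, upper-quartile and unscaled library totals. By genotype, 4 of the 5 had all AEG1_MYC livers above all WT livers (9.79% of all genes), the same 4 all AEG1_MYC above all AEG1 livers (9.59%), and 3 all MYC above all WT livers (5.46%). The median log2 fold change of the 5 between carriers and non-carriers was 0.61, against 0.00 for all genes fitted.

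Calls depended on the tool and on single libraries. In edgeR's quasi-likelihood test, adjusted over all genes, 2 of the 5 (Zfas1 and Gas5) were called between carriers and non-carriers, against 0.11% of all genes. DESeq2 called 3 (2.23% of all genes) and limma with library weights 2 (0.234%). Without AEG1_MYC replicates 1 and 2 the log2 fold change was 1.14 for Zfas1 and 0.60 for Gas5. In that fit, with 1 AEG1_MYC library left, Gas5 was not called. Leaving out single libraries gave 0 to 2 calls, with 0 without WT replicate 1, WT replicate 3, AEG1 replicate 2, MYC replicate 2 or MYC replicate 3.

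In AEG1_MYC against WT edgeR called 1 member (Zfas1), against 0.263% of all genes, DESeq2 called 3 (4.76%) and limma 0 (0.168%). The edgeR count was 0 without AEG1_MYC replicates 1 and 2, with the libraries of these 2 genotypes alone, and in 10 of the 12 fits that left out 1 library, and it was 2 without AEG1_MYC replicate 3. In AEG1_MYC against AEG1 edgeR also called 1 (Zfas1), against 0.322% of all genes, DESeq2 called 3 (5.12%) and limma 1 (0.424%). Here the edgeR count was 0 without AEG1_MYC replicates 1 and 2, with the compared libraries alone, with upper-quartile scaling and in 10 of the 12 fits without 1 library, and 3 without AEG1_MYC replicate 3. Both counts were 1 without AEG1_MYC replicate 1. Over all genes, edgeR called 36 against WT and 44 against AEG1 with all libraries. These became 687 and 630 without AEG1_MYC replicate 3, and 40 and 67 without AEG1_MYC replicate 1.

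No member was called by edgeR in MYC against WT, where it called 0 genes in all. At an unadjusted p under 0.05 there were 3 members, against 3.47% of all genes, and DESeq2 called 2, against 0.205%. In AEG1 against WT edgeR and DESeq2 called 0 members, with 0 at an unadjusted p under 0.05 (3.92% of all genes), where edgeR called 0 genes and DESeq2 0.11%. For the interaction both called 0 members, with 0 at an unadjusted p under 0.05 (9.25% of all genes), where edgeR called 0.0219% of all genes and DESeq2 1.12%. In AEG1_MYC against MYC both called 0 members, with 1 (Gas5) at an unadjusted p under 0.05 (15.2% of all genes), where edgeR called 0.205% of all genes and DESeq2 3.3%. Because the members were picked on this pattern, the counts describe it and support nothing further.

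The AEG-1 transgene alone went with small differences of either sign. Log2 fold changes of AEG1 against WT ran from -0.12 (Gas5) to 0.06 (Snhg3), each smaller than or about the size of its SE, and the libraries of the 2 genotypes overlapped for all 5 genes, so that 0 members had all AEG1 livers above (5.16% of all genes) or below (5.53%) all WT livers. Added to Alb/c-Myc, it went with a lower Gas5, as above. For the other 4 members, AEG1_MYC against MYC gave 0.39 ± 0.27 in Snhg1, -0.09 ± 0.19 in Zfas1, 0.31 ± 0.31 in Snhg3 and 0.14 ± 0.21 in Snhg12, with overlapping libraries.

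Levels of Myc and of the host genes could also be set side by side within genotypes. In the 3 MYC livers all 5 members ranked in the order of Myc: lowest in the liver with 23.4 CPM of Myc, and highest in that with 53.7 CPM. That order was shared by 2774 of the 13684 genes (20.3%). Reads in genes followed it too (28672580, 35019109 and 36177913), and the part of depth in the shared order was not tested. In AEG1_MYC the liver with 165.0 CPM of Myc had the highest Snhg1, Zfas1 and Snhg12, but not the highest Gas5 or Snhg3. Gas5 differed little between the 3 AEG1_MYC livers (65.1 to 68.9 CPM) while Myc ranged from 58.4 to 165.0 CPM.

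**Figure D3:**
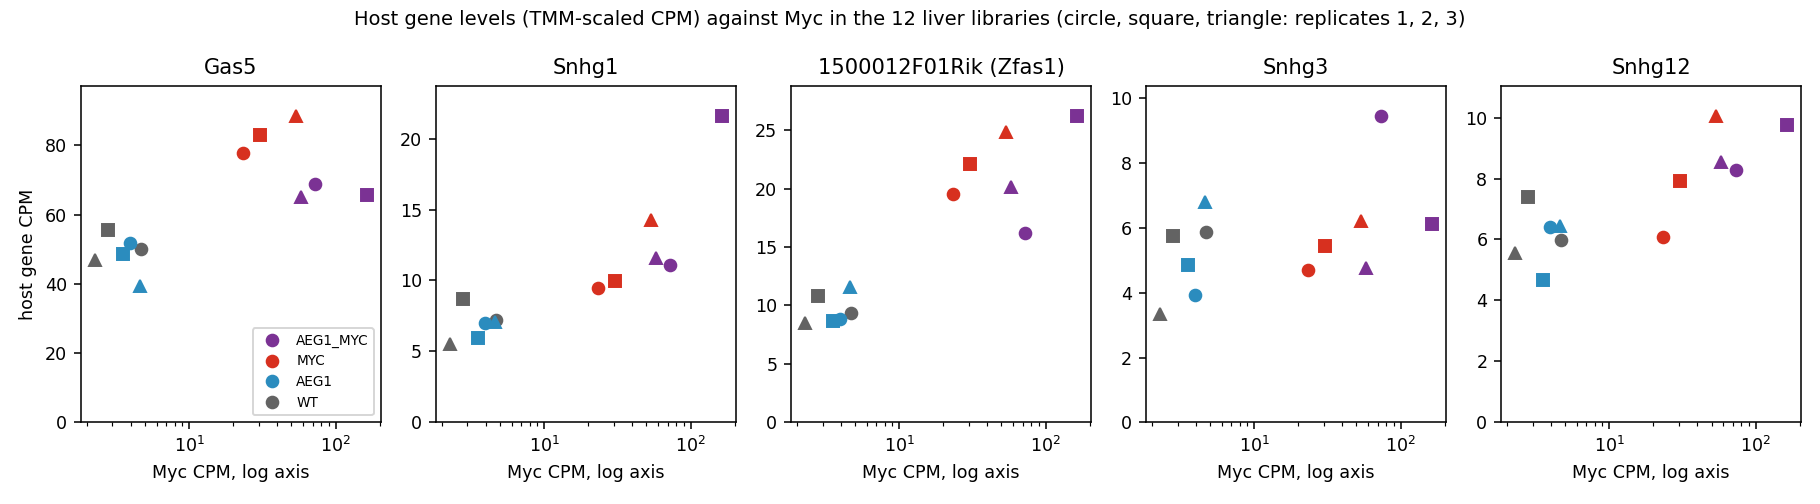
Level of each host gene (y axis, TMM-scaled CPM) against the level of Myc in the same library (x axis, logarithmic), 12 points coloured by genotype with replicates as circles, squares and triangles. AEG1 and WT livers sit at 2.26 to 4.73 CPM of Myc and MYC and AEG1_MYC livers at 23.4 to 165.0 CPM, and Gas5 is lower in the AEG1_MYC than in the MYC livers although Myc is not.

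Within genotypes the correlation between the host genes differed from pair to pair. After removal of the genotype means, Snhg1 and Zfas1 had a Pearson r of 0.85 over the 12 libraries, Snhg1 and Snhg12 one of 0.74, and Zfas1 and Snhg12 one of 0.70. Without AEG1_MYC replicate 2 these were 0.73, 0.87 and 0.74. Gas5 had an r of -0.15 with Zfas1 and 0.25 with Snhg1, and Snhg3 had 0.01 to 0.32 with the other 4. Without AEG1_MYC replicate 2 the r was 0.44 for Gas5 and Snhg1, 0.48 for Snhg3 and Snhg1, and 0.34 for Snhg3 and Zfas1. All are descriptions over points that share library, depth and scaling, and carry no p.

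Genes with the most similar pattern were named for each member by the Pearson r of log2 CPM over the 12 libraries, among 12080 genes with a mean of at least 1 CPM. For Gas5 they included Unc13b (r = 0.88), a factor of vesicle release, and Gnb2l1 (0.88), which encodes the ribosome-bound RACK1 and also hosts snoRNAs. Snhg1 was most like Rps24 (0.97), Snhg4 (0.96) and Cct2 (0.95), a chaperonin subunit. Zfas1 was most like Eef1b2 (0.96), an elongation factor subunit, Rps20 (0.95) and the unnamed 2410004N09Rik (0.95). The Snhg12 list held Pabpc4 (0.94), a poly(A)-binding protein, Taf1d (0.93), a factor of RNA polymerase I, and Prmt7 (0.90), an arginine methyltransferase. Snhg3 had Filip1l (0.93), Casp4 (0.91) and Snx5 (0.90), none of which belongs to the host lists. Of the genes named here, Gnb2l1, Eef1b2 and Rps20 are on the list of protein-coding hosts and Snhg4 is on that of noncoding hosts. Leaving out AEG1_MYC replicate 2 kept these r values between 0.893 and 0.965.

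The other noncoding snoRNA hosts looked up had higher values in Alb/c-Myc carriers as well, without passing edgeR's test. They were those with a symbol or synonym beginning with Snhg, and Dancr. Hosts under other names are not covered. The files held 12, 4 of them under an older symbol, and 11 passed the filter on low counts. The other, Snhg9, had at most 3 reads in any library. Between carriers and non-carriers all 11 had a positive log2 fold change, with a median of 0.40, against 50.6% positive and a median of 0.00 over all genes fitted. edgeR called 0 of the 11 (0.11% of all genes), with 7 at an unadjusted p under 0.05 (11.1% of all genes). DESeq2 called 4 of the 11 (2.23% of all genes) and limma with library weights 0 (0.234%). With AEG1_MYC replicates 1 and 2 left out, 10 of the 11 were positive and the median was 0.27, from 1 AEG1_MYC library.

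Snhg4, a host of H/ACA RNA, had the highest log2 fold change of these, 1.63 ± 0.32 (edgeR adjusted p = 0.084). It measured 3.01, 7.17 and 2.15 CPM in AEG1_MYC, 2.38, 2.93 and 4.29 in MYC, 1.59, 0.970 and 1.25 in AEG1, and 1.19, 1.30 and 0.726 in WT livers. Like Zfas1, Gas5 and Snhg1, it had all carriers above all non-carriers. Next came 1810032O08Rik (Snhg16) at 0.97 ± 0.22 and 2700023E23Rik (Dancr) at 0.93 ± 0.26, which DESeq2 called together with Snhg4 and Snhg8 (0.39 ± 0.09). These values were 1.16 for Snhg4, 0.72 for Snhg16, 0.51 for Dancr and 0.44 for Snhg8 without AEG1_MYC replicates 1 and 2. The values of 9430008C03Rik (Snhg17), Snhg6, Snhg5, Snhg7, 2810008D09Rik (Snhg20) and Snhg10 were between 0.18 and 0.53. Snhg11 reached 331.4 CPM in AEG1_MYC replicate 2 and 134.1 CPM in AEG1 replicate 3, against 25.8 to 64.5 CPM in the other 10 livers, and its log2 fold change was 0.51 ± 0.53. That value turned to -0.24 without AEG1_MYC replicate 2.

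Protein-coding snoRNA hosts, mostly ribosomal protein and translation factor genes, were listed with 38 genes. Of these, 37 passed the filter, 30 had a positive log2 fold change between carriers and non-carriers, and the median was 0.39. edgeR called 2, both higher in carriers, against 0.11% of all genes. Rpl13a, whose introns hold C/D snoRNAs, stood at 101.2, 135.6 and 119.2 CPM in AEG1_MYC and 105.0, 140.4 and 105.0 in MYC livers, against 78.1, 73.9 and 76.8 in AEG1 and 79.9, 72.8 and 76.3 in WT livers. Its log2 fold change was 0.63 ± 0.10 (edgeR adjusted p = 0.0468). For Rps20, of the small ribosomal subunit, it was 0.59 ± 0.09 (edgeR adjusted p = 0.0484). For both genes, among 16 of the 37, all 6 carriers lay above all 6 non-carriers, against 0.687% of all genes. Both calls sat close to the threshold and were lost in 13 of 19 other settings each, with adjusted p values up to 0.17. DESeq2 called 16 of the list (2.23% of all genes) and limma with library weights 3 (0.234%). At an unadjusted edgeR p under 0.05 there were 22 of the 37, all higher in carriers, against 11.1% of all genes in either direction. Leaving out AEG1_MYC replicates 1 and 2 gave a log2 fold change of 0.63 for Rpl13a and 0.56 for Rps20, from 1 AEG1_MYC library. The lowest member, Rps2, had 50 and 74 reads in AEG1_MYC replicates 1 and 2 and 58 in MYC replicate 1, against 710 to 2901 in the other 9 libraries. Ribosomal protein genes have near-identical pseudogenes, and 46.5% to 58.0% of the values in the tables were alignments at several places, which are not counted to genes, so these counts are uncertain.

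**Figure D4:**
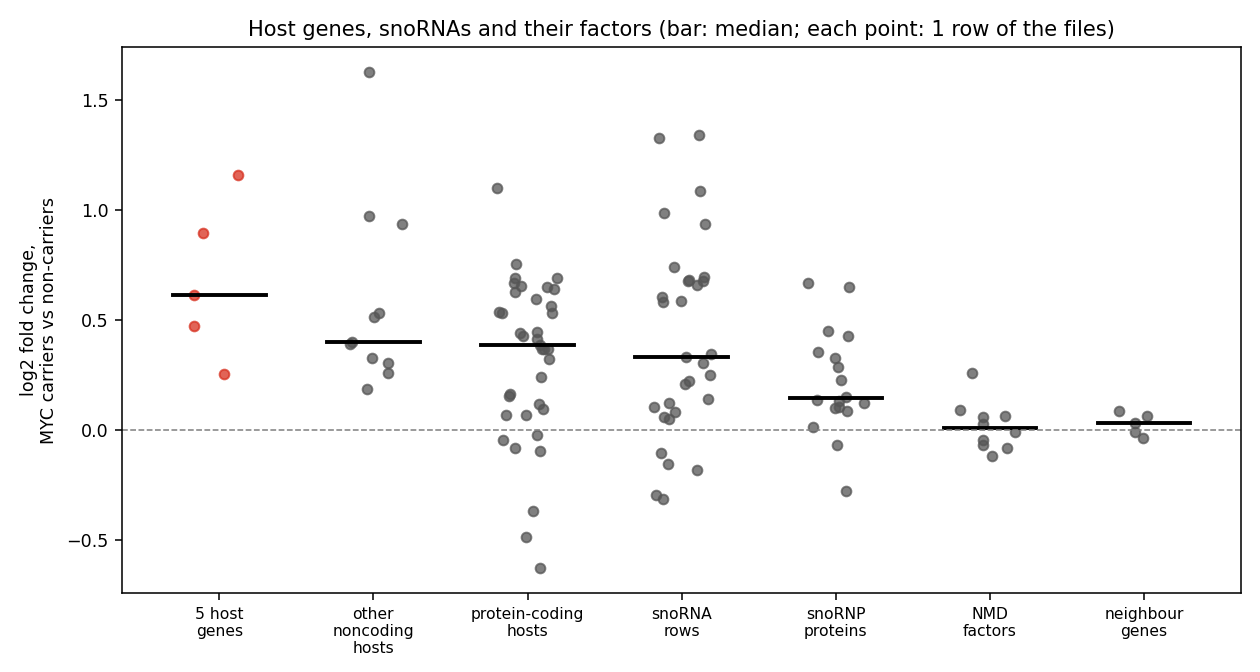
Log2 fold change between Alb/c-Myc carriers (AEG1_MYC and MYC) and non-carriers (AEG1 and WT) on the y axis for every fitted gene of 7 lists on the x axis, with a bar at each median. The medians are 0.61 for the 5 host genes, 0.40 for other noncoding hosts, 0.39 for protein-coding hosts, 0.33 for snoRNAs with a line of their own, 0.14 for snoRNP proteins, 0.01 for factors of nonsense-mediated decay and 0.03 for neighbouring genes.

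The snoRNAs within the hosts gave few reads. Snord12 in Zfas1 had 10, 33 and 6 reads in AEG1_MYC, 14, 25 and 35 in MYC, 5, 8 and 6 in AEG1, and 6, 10 and 5 in WT livers. Relative to its host this was 2.45 reads per 100 host reads in AEG1_MYC, 3.21 in MYC, 1.99 in AEG1 and 2.66 in WT livers, summed over 3 livers. For Gas5 the ratio was 1.07 in AEG1_MYC, 0.955 in MYC, 0.993 in AEG1 and 1.03 in WT livers. Reads at these lines cannot be told from reads of unspliced host RNA. Snord22 in Snhg1, needed in frogs for the maturation of small-subunit ribosomal RNA, had 7.65 reads per 100 host reads in AEG1_MYC, 10.3 in MYC, 10.2 in AEG1 and 9.93 in WT livers. The 4 snoRNAs of Snhg12 together had 18.6 in AEG1_MYC, 24.4 in MYC, 20.1 in AEG1 and 19.5 in WT livers. No line for a snoRNA of Snhg3 was found. Of 114 snoRNA lines in all, 31 passed the filter, 26 had a positive log2 fold change in carriers and the median was 0.33. edgeR and DESeq2 called 0 of them, against 0.11% and 2.23% of all genes. At an unadjusted edgeR p under 0.05 there were 8, against 11.1% of all genes. Without AEG1_MYC replicates 1 and 2 the filter passed 42 lines, of which 31 were positive, and the median was 0.20.

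Proteins that bind and assemble snoRNAs had a smaller median. All 18 genes of that list passed the filter, 16 had a positive log2 fold change in carriers, and the median was 0.14. edgeR called 0 (0.11% of all genes), with 3 at an unadjusted p under 0.05 (11.1%), and DESeq2 called 1 (2.23%). Without AEG1_MYC replicates 1 and 2 the median was 0.03, with 10 of the 18 positive. Nhp2, a core protein of H/ACA particles, was the highest in MYC against WT at 0.75 ± 0.18, and Shq1, an assembly factor of the same particles, the lowest at -0.28 ± 0.26. In AEG1_MYC against WT Gar1, also of H/ACA particles, was the highest at 0.72 ± 0.37 and Shq1 the lowest at -0.33 ± 0.26. Leaving out AEG1_MYC replicates 1 and 2 gave -0.07 for Gar1 and -0.56 for Shq1, from 1 AEG1_MYC library. The median for AEG1_MYC against WT was -0.04 without AEG1_MYC replicates 1 and 2, and 0.27 with them.

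Factors of nonsense-mediated decay, which removes the spliced RNA of some hosts, gave a median of 0.01 in carriers, with 5 of 10 positive. edgeR and DESeq2 called 0, against 0.11% and 2.23% of all genes. At an unadjusted p under 0.05 there were 0, against 11.1% of all genes in edgeR. The kinase gene Smg1 was highest in AEG1_MYC against WT (0.70 ± 0.21, edgeR adjusted p = 0.167) and Upf3b lowest (-0.29 ± 0.11, edgeR adjusted p = 0.21). They were 0.49 and -0.17 without AEG1_MYC replicates 1 and 2.

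Of the 5 genes next to the hosts, 0 had all carriers above all non-carriers, against 0.687% of all genes. In carriers against non-carriers the log2 fold change was -0.04 ± 0.11 for Znfx1 beside Zfas1, 0.03 ± 0.13 for Slc3a2 beside Snhg1, -0.01 ± 0.13 for Zbtb37 beside Gas5, 0.09 ± 0.15 for Rcc1 beside Snhg3 and 0.06 ± 0.09 for Trnau1ap beside Snhg12. edgeR and DESeq2 called 0 of these 5, against 0.11% and 2.23% of all genes. At an unadjusted p under 0.05 there were 0, against 11.1% of all genes in edgeR. The 5 values lay between -0.18 and 0.12 without AEG1_MYC replicates 1 and 2. Exons of Zfas1 and Znfx1, on opposite strands, share 82 bases, and exons of Snhg3 and Rcc1, on the same strand, share 135 bases in GENCODE. The strand setting of the counting is not known, and reads in the shared bases may stand under either gene or under neither.

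Besides the hepatocyte markers given above, the summed levels of cycling and of stellate cell genes did not overlap between AEG1_MYC and WT livers. Between carriers and non-carriers edgeR called 0 of these cycling and stellate genes, against 0.11% of all genes. At an unadjusted edgeR p under 0.05 there were 7 of 10 and 5 of 8, against 11.1% of all genes. DESeq2 called 1 cycling gene and 3 stellate genes, against 2.23% of all genes. Fewer genes of each list reached an unadjusted edgeR p under 0.05 without AEG1_MYC replicates 1 and 2, with 1 AEG1_MYC library left. The 10 genes of mitosis and cell cycle listed, of which none was at 0 in all libraries, summed to 32.6 to 71.7 CPM in AEG1_MYC, 14.3 to 20.5 in MYC and 7.72 to 19.3 in AEG1, against 7.96 to 23.9 in WT livers, so that AEG1_MYC lay above the other genotypes. All 8 stellate cell markers had a negative log2 fold change in carriers, with sums of 175.4 to 355.1 CPM in AEG1_MYC, 318.8 to 500.2 in MYC and 561.0 to 702.3 in AEG1, against 429.6 to 562.0 in WT livers. Kupffer cell markers summed to 129.1 to 860.9 CPM in AEG1_MYC, 265.9 to 377.1 in MYC and 254.0 to 460.5 in AEG1, against 174.5 to 595.6 in WT livers. For these the genotypes overlapped, with AEG1_MYC holding both the lowest and the highest liver. Lymphocyte markers ran from 13.7 to 46.5 CPM in AEG1_MYC, 16.1 to 28.1 in MYC and 15.5 to 39.4 in AEG1, against 12.9 to 21.6 in WT livers. Endothelial markers were at 262.9 to 323.0 CPM in AEG1_MYC, 275.2 to 321.0 in MYC and 316.3 to 359.5 in AEG1, against 243.0 to 322.4 in WT livers. Bile duct markers were at 42.5 to 85.9 CPM in AEG1_MYC, 87.2 to 110.5 in MYC and 60.6 to 90.5 in AEG1, against 75.2 to 112.6 in WT livers. The summed markers of each of these cell types were thus detected in every genotype, which does not cover each marker singly. In MYC against WT, 7 of the 10 cycling genes had a positive log2 fold change, with a median of 0.19, and their sums overlapped. The part of cell composition and of cell division in the levels of the host genes was not tested.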

How the data were processed

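Liver RNA from 12 mice was sequenced with an Illumina TruSeq RNA kit after miRNeasy extraction, per the labels. The authors deposited raw read counts per gene symbol, 1 table per library. Per the submitters' processing notes, CASAVA 1.8.2, TopHat2 2.0.7, build mm9 and HTSeq were used. The HTSeq version, annotation and strand setting are not given in the sources used here.

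The 5 summary lines, which name no gene, stayed out of library sizes and tests: alignments at several places were 46.5% to 58.0% of all values, and no-feature reads 11.5% to 15.5% and ambiguous reads 0.634% to 0.746% of uniquely aligned reads. Counts were fitted in R 4.3.3 with edgeR 4.0.16 (TMM, filterByExpr, robust quasi-likelihood F test, two-sided, 1 coefficient per genotype over 12 libraries). P values were adjusted by Benjamini-Hochberg over 13684 genes, and a gene was called under 0.05. A log2 fold change is given ± SE, the median SE over genes being 0.208 for 3 mice against 3. Carriers against non-carriers is the mean of AEG1_MYC and MYC minus that of AEG1 and WT. The interaction is the effect of AEG-1 in MYC livers less its effect in WT livers. Pattern likeness used log2 CPM with a prior count of 1. Depth of 21931197 to 40552316 reads in genes leaves 78 to 3355 reads per library at the 5 host genes.

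As alternatives, scaling was by RLE or upper quartile, the filter was changed, and other fits were run: no filter, or 1 CPM or more in 3 libraries or more, DESeq2 1.42.0, limma 3.58.1 with library weights, the compared libraries alone, AEG1_MYC replicates 1 and 2 left out together, and each library left out in turn. Unscaled library totals were added after seeing the data. The fits were tested on simulated data with changes larger than those of the host genes. Smaller changes and libraries that stand apart were not simulated.

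The members, the lists and the alternatives were chosen with earlier results of these data known. Named genes are the 5 members, Myc, Mtdh, neighbours, detected noncoding hosts, called list members and the highest and lowest of each list in MYC and in AEG1_MYC against WT (marker lists are given as sums), and the 3 genes most like each member. Noncoding hosts outside the members were those with a symbol or synonym beginning with Snhg, and Dancr. Lines whose symbol begins with Snord, Snora or Scarna were taken as snoRNAs. Replicates are separate mice, numbered in accession order. Files are on mm9 and the printed sequences on GRCm38, joined by symbol, so no position from the files was used. One gene that the rule for similar patterns selected is not reported here.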

Additional observations from a re-analysis of the deposited data

How the results depend on the processing

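No paired analysis was possible because the labels give no replicate numbers shared between genotypes. Log2 fold changes of the 5 host genes were followed in 7 comparisons. Those of Zfas1, Gas5, Snhg1 and Snhg12 between Alb/c-Myc carriers and non-carriers kept their sign in every setting tried. So did the values of these genes for AEG1_MYC and for MYC against WT. Without AEG1_MYC replicates 1 and 2, Snhg3 turned to -0.067 against WT, -0.13 against AEG1, -0.20 against MYC and -0.25 in the interaction, from 1 AEG1_MYC library. Leaving out single libraries, Snhg1 ran from 0.66 to 1.23 in AEG1_MYC against WT, 0.76 to 1.32 against AEG1, 0.012 to 0.60 against MYC and 0.11 to 0.70 in the interaction, the lowest each without AEG1_MYC replicate 2. The cause was not tested.

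The number of genes called depended on the tool and on single libraries. For AEG1, MYC and AEG1_MYC against WT, AEG1_MYC against AEG1 and against MYC, carriers against non-carriers and the interaction, edgeR called 0, 0, 36, 44, 28, 15 and 3 genes, and DESeq2 15, 28, 652, 700, 451, 305 and 153. In carriers against non-carriers the count was 9 with RLE scaling, 7 with upper-quartile scaling, 9 with no filter and 32 with limma, which called 23 in AEG1_MYC against WT and 5 in the interaction. With the compared libraries alone AEG1_MYC gave 2 against WT, 2 against AEG1 and 7 against MYC, where fewer samples were fitted. Without AEG1_MYC replicates 1 and 2 the counts were 4 (AEG1_MYC against WT), 7 (against AEG1), 3 (against MYC), 8 (carriers) and 1 (interaction). Leaving out single libraries gave 0 to 0 genes for AEG1 against WT, 0 to 1 for MYC against WT, 6 to 687 for AEG1_MYC against WT, 4 to 630 against AEG1, 6 to 450 against MYC, 2 to 138 for carriers and 1 to 32 for the interaction, the highest each without AEG1_MYC replicate 3, except for MYC against WT, where it came without AEG1_MYC replicate 2. Low counts limit the precision for Snhg3 (78 to 286 reads), Snhg4 (17 to 242), Snhg10 (5 to 20) and the snoRNA lines.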
